A study of Mus musculus with 4 samples.

Results

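Lysosomal genes were followed in messenger RNA sequencing of pro-B cells, the bone marrow precursors that begin to rearrange the immunoglobulin heavy chain. The set held 45 genes, taken by symbol from the 24411 rows of the deposited count table, for hydrolases, an activator and a growth factor stored in lysosomes, membrane proteins, transcription factors that act on lysosomal genes, and the vacuolar proton pump (V-ATPase). Of these, 44 had enough counts to be tested, and Atp6v0c was listed at 0 in every library.

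The cells were sorted from bone marrow of C57BL/6 mice by surface B220, CD43 and HSA. All 4 mice carried mb1Cre, a Cre recombinase driven from the B-lineage gene Cd79a, so floxed alleles are expected to recombine in B-lineage cells and to stay intact elsewhere. Control mice 55 and 69 were Tnpo3+/+ mb1Cre, and knockout mice 51 and 63 were Tnpo3fl/fl mb1Cre. The labels used here name no age, and each genotype had 1 library from each of 2 mice. Tnpo3 encodes transportin 3, which carries splicing factors into the nucleus.

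Lysosomes are acidic organelles that break down proteins, lipids, sugar chains and nucleic acids. The V-ATPase pumps protons into them, soluble hydrolases reach them mostly through mannose 6-phosphate receptors, and membrane proteins line and shape them. TFEB, TFE3 and MITF are related transcription factors that bind short E-box sequences, called CLEAR elements, near the starts of many lysosomal genes. Cells that take up and process antigen, such as macrophages and dendritic cells, are known for abundant cathepsins.

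Library totals ran from 26211372 to 40647384 counts. Tnpo3 was at 159 (control 55) and 148 CPM (control 69) against 79.7 (knockout 51) and 68.8 CPM (knockout 63), where CPM puts counts on a scale common to all libraries. It fell by 1.05 ± 0.14 on the log2 scale (SE; edgeR adjusted p of 0.0108), or by 0.94 without knockout 63 (adjusted p of 0.0603). Xist and Ddx3y levels showed 1 female (control 55, knockout 63) and 1 male (control 69, knockout 51) per genotype. The sorted cell type was checked by its markers. All 11 B-lineage markers were detected in every library, and 9 of the 11 fell in the knockout.

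Lysosomal genes were on balance higher in the knockout, with large rises among the cathepsins and small differences among the V-ATPase subunits. Of the 44 tested, 21 rose, 2 fell and 21 did not pass, where passing means an adjusted p under 0.05 in edgeR's quasi-likelihood test over all genes. Over all 13507 genes tested, 11.3% rose and 10.9% fell. The median log2 fold change was 0.62 over the 44 genes and -0.02 over all genes. Both knockouts lay above both controls for 33 of the 44 and below them for 4, against 33% and 34.6% of all genes. In bulk RNA fewer cells of a type and less RNA per cell cannot be told apart. In the same libraries 9 of 11 dendritic cell markers rose and 9 of 9 neutrophil markers fell, and their part in these counts was not tested. With sex added as a block, 24 rose and 3 fell. Without knockout 63 the genes that rose numbered 14 and those that fell 1, and without knockout 51 they numbered 17 and 2.

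The 45 genes together took 0.576% (control 55) and 0.443% (control 69) of all counts, against 1.498% (knockout 51) and 1.73% (knockout 63). With Psap left out the shares were 0.417% and 0.329% in the control mice against 0.902% and 1.06% in the knockout mice. The rise in the summed level was thus not carried by Psap alone, although Psap made up 27.5% and 25.8% of the set's counts in the controls and 39.8% and 38.5% in the knockouts.

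**Figure D1:**
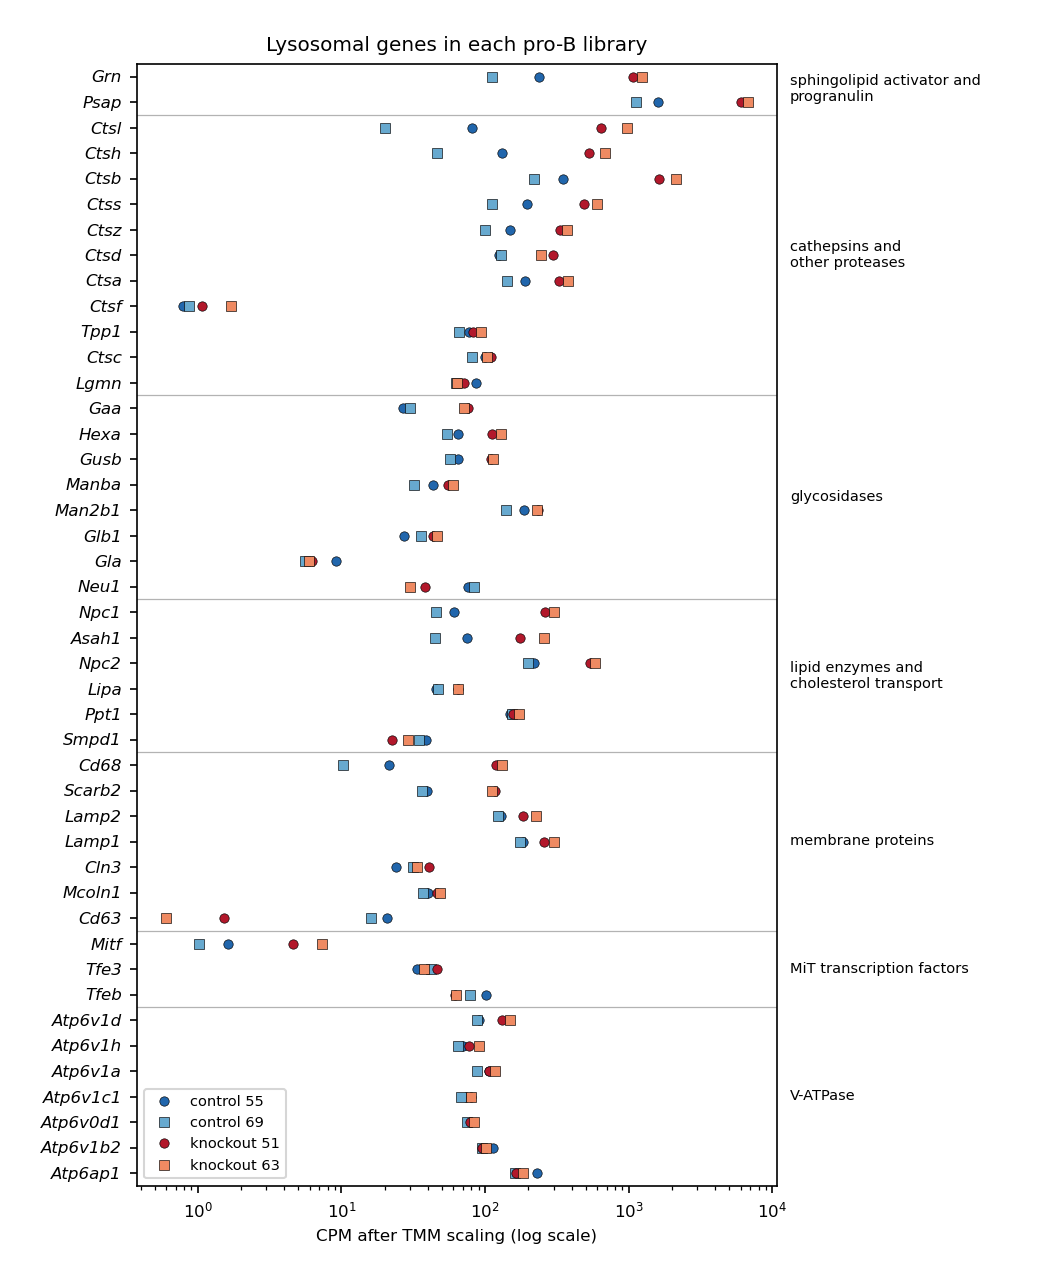
CPM (log scale) of the 44 lysosomal genes tested, with 1 point per library, grouped by role. Both knockouts lay to the right of both controls for 33 genes, while most V-ATPase genes had points close together.

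Psap encodes prosaposin, the precursor of the saposins that help hydrolases reach their lipid substrates (GRCm38 chromosome 10, 60277627 to 60302597). It was at 1584 (control 55) and 1125 CPM (control 69) against 6005 (knockout 51) and 6741 CPM (knockout 63). Per length of its exons it was the most abundant member in both genotypes, at a mean of 494 RPKM (CPM per kilobase of exon) in controls and 2322 RPKM in knockouts. Psap rose 4.70-fold, with a log2 fold change of 2.23 ± 0.28 and an edgeR adjusted p of 0.00904. Grn, which encodes progranulin, a secreted and lysosomal glycoprotein, was at 238 (control 55) and 112 CPM (control 69) against 1074 (knockout 51) and 1240 CPM (knockout 63). The fitted log2 change was 2.73 ± 0.39 (adjusted p of 0.0122), and 3.41 without control 55. For Grn the controls differed by more than the knockouts did, and the groups did not overlap for either gene.

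Of the 11 cathepsins and other proteases, 7 rose (63.6%), 0 fell and 4 did not pass, with a median log2 fold change of 1.09. Among all genes tested, 11.3% rose and 10.9% fell. Among the 45 genes, the largest fold change of those that rose was that of Ctsl (chromosome 13, 64359337 to 64370890), which encodes the cysteine protease cathepsin L. Ctsl was at 81.4 (control 55) and 20.3 CPM (control 69) against 640 (knockout 51) and 979 CPM (knockout 63). The fitted log2 change was 3.99 ± 0.71 (adjusted p of 0.0189), and it was 5.35 without control 55 and 3.31 without control 69. Both knockouts thus lay far above both controls, and the controls themselves differed 4.02-fold.

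Ctsb and Ctsh, which encode cathepsins B and H, cysteine proteases that also trim peptides from the ends of proteins, followed. Ctsb was at 350 (control 55) and 219 CPM (control 69) against 1625 (knockout 51) and 2143 CPM (knockout 63), a log2 fold change of 2.73 ± 0.31 (adjusted p of 0.0077). Ctsh was at 132 and 46.1 CPM in these control mice against 531 and 678 CPM in the knockout mice, a log2 fold change of 2.76 ± 0.51 (adjusted p of 0.021), or 3.75 without control 55. Control 55 was the higher control for both, and neither gene overlapped between genotypes.

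Ctss and Ctsz encode cathepsin S, which cuts the invariant chain of MHC class II, and cathepsin Z, a carboxypeptidase. Ctss was at 196 (control 55) and 112 CPM (control 69) against 491.5 (knockout 51) and 597 CPM (knockout 63), with a log2 fold change of 1.82 ± 0.30 (adjusted p of 0.0164). Ctsz was at 149 and 100 CPM in these control mice against 332 and 371 CPM in the knockout mice, with a log2 fold change of 1.49 ± 0.23 (adjusted p of 0.0139). These changes were smaller than those of Ctsl, Ctsb and Ctsh on the log2 scale, and again the groups did not overlap.

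The aspartic protease gene Ctsd and Ctsa, whose product protects glycosidases, rose by about the same amount. Ctsd was at 125 (control 55) and 130 CPM (control 69) against 299 (knockout 51) and 244 CPM (knockout 63), a log2 fold change of 1.09 ± 0.16 (adjusted p of 0.0122). Ctsa was at 189 and 142 CPM in these control mice against 324 and 377 CPM in the knockout mice, a log2 fold change of 1.09 ± 0.20 (adjusted p of 0.0193). Without knockout 63 Ctsa did not pass, at 0.98 with an adjusted p of 0.0756.

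The 4 proteases that did not pass had log2 fold changes from -0.14 to 0.73. Ctsc, whose product activates granule proteases, was at 0.24 ± 0.15, and Tpp1, a tripeptidyl peptidase, at 0.29 ± 0.15. Lgmn, which encodes the asparaginyl endopeptidase legumain, was at -0.14 ± 0.19 and overlapped between genotypes. Ctsf was the least abundant member with counts in the controls, at 0.795 and 0.864 CPM, and reached 1.06 and 1.69 CPM in knockouts 51 and 63.

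Glycosidases trim sugar chains from glycoproteins, glycolipids and glycogen. Of 8 glycosidases, 3 rose (37.5%), 1 fell (12.5%) and 4 did not pass, against 11.3% rising and 10.9% falling over all genes tested. Their median log2 fold change was 0.56. Gaa, which encodes the glycogen-degrading acid alpha-glucosidase, was at 27.0 (control 55) and 29.8 CPM (control 69) against 75.4 (knockout 51) and 71.8 CPM (knockout 63). The fitted log2 change was 1.38 ± 0.15 (adjusted p of 0.00729), and it lay between 1.34 and 1.45 with any library left out. Gaa was thus among the members with the closest agreement between mice.

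Hexa, the alpha subunit of beta-hexosaminidase, was at 65.05 (control 55) and 54.6 CPM (control 69) against 112 (knockout 51) and 128 CPM (knockout 63), a log2 fold change of 1.01 ± 0.16 (adjusted p of 0.0147). Gusb, beta-glucuronidase, was at 64.9 and 56.9 CPM in these control mice against 109 and 114 CPM in the knockout mice, a log2 fold change of 0.87 ± 0.14 (adjusted p of 0.0149). Without knockout 63 neither passed (Hexa 0.91, adjusted p of 0.0739, and Gusb 0.84, adjusted p of 0.0834), and Gusb also missed the threshold without knockout 51 (0.90, adjusted p of 0.0574). The knockouts lay above the controls for both.

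Neu1 went the other way. It encodes a sialidase that removes terminal sialic acids and works in a complex with cathepsin A and beta-galactosidase (chromosome 17, 34931253 to 34935953). Neu1 was at 76.5 (control 55) and 84.1 CPM (control 69) against 38.1 (knockout 51) and 30.2 CPM (knockout 63), so that both knockouts were below both controls. The fitted log2 change was -1.23 ± 0.18 (adjusted p of 0.0122), or -1.07 without knockout 63, where the adjusted p was 0.0548. Of its partners, Ctsa rose as given above, and Glb1, which encodes beta-galactosidase, was at 27.2 (control 55) and 35.9 CPM (control 69) against 43.4 (knockout 51) and 45.9 CPM (knockout 63). Glb1 did not pass (0.50 ± 0.20, adjusted p of 0.128) but did without control 69 (0.71, adjusted p of 0.0462).

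The mannosidase genes and Gla made up the rest of the glycosidases. Man2b1 was at 187 (control 55) and 140 CPM (control 69) against 233 (knockout 51) and 231 CPM (knockout 63), a log2 fold change of 0.51 ± 0.18 (adjusted p of 0.0991), and it passed without control 55 (0.76, adjusted p of 0.0228) and with sex as a block (0.52, adjusted p of 0.0424). Manba was at 43.2 and 32.2 CPM in these control mice against 55.0 and 60.2 CPM in the knockout mice, a log2 fold change of 0.61 ± 0.20 (adjusted p of 0.081), and it too passed without control 55 (0.87, adjusted p of 0.0206) and with sex as a block (0.62, adjusted p of 0.0246). Gla, alpha-galactosidase A, was at -0.28 ± 0.34 and overlapped between genotypes.

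Of 6 genes for lipid enzymes and cholesterol transport, 3 rose (50%), 0 fell and 3 did not pass, with a median of 0.95. The shares among all genes tested were 11.3% rising and 10.9% falling. Npc1 and Npc2 encode the membrane and the soluble protein that together move cholesterol out of the lysosome. Npc1 was at 60.4 (control 55) and 45.7 CPM (control 69) against 261 (knockout 51) and 300.5 CPM (knockout 63), a log2 fold change of 2.40 ± 0.19 (adjusted p of 0.00497). Npc2 was at 219 and 197 CPM in these control mice against 539.5 and 580.2 CPM in the knockout mice, a log2 fold change of 1.43 ± 0.15 (adjusted p of 0.00714). Both passed with any library left out.

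Asah1, which encodes acid ceramidase, was at 75.4 (control 55) and 44.8 CPM (control 69) against 174 (knockout 51) and 257 CPM (knockout 63), a log2 fold change of 1.84 ± 0.32 (adjusted p of 0.0176). The gene for the enzyme that makes ceramide from sphingomyelin, Smpd1, was at -0.51 ± 0.20 and did not pass (adjusted p of 0.133), with both knockouts below both controls. Lipa, the acid lipase, was at 0.48 ± 0.14 and narrowly missed the threshold (adjusted p of 0.0608), and it passed with DESeq2 (adjusted p of 0.0418) and with sex as a block (0.48, adjusted p of 0.0329). Ppt1, a thioesterase that removes palmitate from proteins, was at 0.11 ± 0.13.

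Of 7 membrane proteins, 4 rose (57.1%), 1 fell (14.3%) and 2 did not pass, against 11.3% rising and 10.9% falling over all genes tested. Cd68, which encodes a heavily glycosylated protein widely used as a marker of phagocytes, was at 21.3 (control 55) and 10.2 CPM (control 69) against 119 (knockout 51) and 131 CPM (knockout 63). The fitted log2 change was 2.99 ± 0.37 (adjusted p of 0.00884), or 3.65 without control 55. Scarb2, which encodes LIMP-2, the carrier of glucocerebrosidase, was at 39.3 and 36.1 CPM in these control mice against 117 and 111 CPM in the knockout mice, a log2 fold change of 1.60 ± 0.13 (adjusted p of 0.00497). The replicates of Scarb2 lay close to each other in both genotypes.

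Lamp1 and Lamp2, the genes of the most abundant lysosomal membrane glycoproteins, had smaller log2 fold changes. Lamp1 was at 184 (control 55) and 175 CPM (control 69) against 256 (knockout 51) and 300.1 CPM (knockout 63), a log2 fold change of 0.63 ± 0.15 (adjusted p of 0.0361). Lamp2 was at 129 and 122 CPM in these control mice against 182 and 225 CPM in the knockout mice, a log2 fold change of 0.70 ± 0.16 (adjusted p of 0.0322). Both calls were lost without either knockout. Lamp1 did not pass without control 69 (0.60, adjusted p of 0.0618), knockout 51 (0.74, adjusted p of 0.0885) or knockout 63 (0.52, adjusted p of 0.218), and Lamp2 did not pass without knockout 51 (0.85, adjusted p of 0.0587) or knockout 63 (0.54, adjusted p of 0.185). Cln3, a membrane protein gene mutated in a neuronal storage disease, and Mcoln1, a calcium channel gene, were at 0.43 ± 0.22 and 0.30 ± 0.15 and did not pass.

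Cd63 fell, and it had the largest fold change of the 45 genes in either direction. It encodes a tetraspanin of late endosomes and of the secretory granules of several blood cell types (chromosome 10, 128900989 to 128912822). Cd63 was at 20.8 (control 55) and 16.0 CPM (control 69) against 1.51 (knockout 51) and 0.597 CPM (knockout 63). It was 17.1-fold lower in the knockout, with a log2 fold change of -4.10 ± 0.50 (adjusted p of 0.00879), or -4.93 without knockout 51. The knockout libraries held 61 and 18 counts of it.

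**Figure D2:**
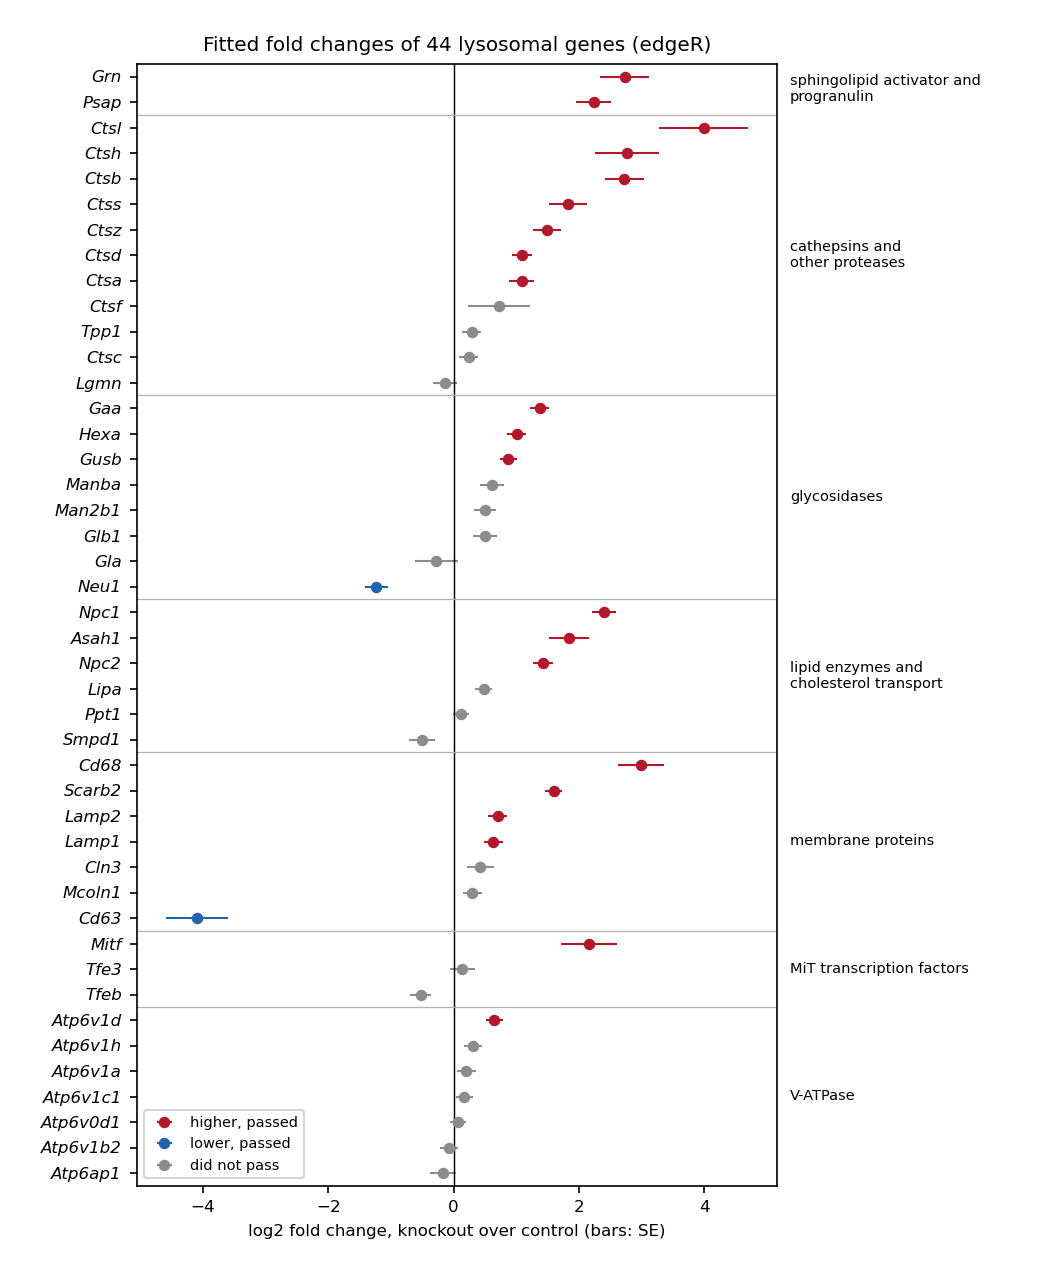
Log2 fold changes of knockout over control for the 44 lysosomal genes tested, with bars of 1 SE, grouped by role and ordered within each role. Genes that passed are red (21 higher) or blue (2 lower), and Ctsl at 3.99 and Cd63 at -4.10 lie at the ends.

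The V-ATPase genes encode a rotary proton pump with a cytosolic and a membrane sector. Of 7 V-ATPase genes tested, 1 rose (14.3%), 0 fell and 6 did not pass, against 11.3% rising and 10.9% falling over all genes tested. Their median log2 fold change was 0.17. The genotypes overlapped for 4 of the 7, against 4388 of all 13507 genes tested. Atp6v1d, a subunit of the central rotor, was at 90.9 (control 55) and 87.1 CPM (control 69) against 130.5 (knockout 51) and 149 CPM (knockout 63), a log2 fold change of 0.65 ± 0.13 (adjusted p of 0.0271). It did not pass without knockout 51 (0.74, adjusted p of 0.0787) or without knockout 63 (0.55, adjusted p of 0.185). The catalytic subunit gene Atp6v1a was at 0.20 ± 0.15 and its partner Atp6v1b2 at -0.08 ± 0.14. The stalk and membrane-sector genes Atp6v1c1, Atp6v1h and Atp6v0d1 were at 0.17 ± 0.13, 0.30 ± 0.15 and 0.07 ± 0.13, and the accessory subunit gene Atp6ap1 at -0.17 ± 0.20. Whether these fold changes differ from those of the hydrolases was not tested. Atp6v0c, the gene of the proteolipid ring, is listed at 0 and has 2 named pseudogenes in GENCODE M21. How reads with several matches were counted is not known here, so its 0 is not read as a level.

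The other V-ATPase subunits were taken as a list of their own. Of 12 tested, 2 rose (16.7%), 0 fell and 10 did not pass, with a median of 0.32. Over all genes tested, 11.3% rose and 10.9% fell. Atp6ap2 (0.78 ± 0.16, adjusted p of 0.0275) and Atp6v0e (0.63 ± 0.16, adjusted p of 0.0466) rose. Neither passed without knockout 51 (0.92 and 0.71, adjusted p-values of 0.0508 and 0.124) or knockout 63 (0.62 and 0.56, adjusted p-values of 0.155 and 0.234), and Atp6v0e also missed the threshold without control 69 (0.48, adjusted p of 0.0849). Tcirg1, the a3 subunit gene of immune cells and osteoclasts, was at 375 (control 55) and 428 CPM (control 69) against 578 (knockout 51) and 675 CPM (knockout 63), just short of the threshold (0.64 ± 0.18, adjusted p of 0.0539), and it passed with DESeq2 (0.65, adjusted p of 0.00707). Atp6v0e2 was under 0.4 CPM in each library and did not pass (2.33 ± 0.76).

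The 3 MiT transcription factor genes did not move together. Tfeb (chromosome 17, 47737030 to 47792419) was at 101 (control 55) and 78.2 CPM (control 69) against 61.9 (knockout 51) and 62.6 CPM (knockout 63). Both knockouts were below both controls, and Tfeb did not pass (-0.52 ± 0.17, adjusted p of 0.0785) except without control 69 (-0.70, adjusted p of 0.0198) and with sex as a block (-0.51, adjusted p of 0.0377). Tfe3 was at 33.4 and 42.2 CPM in these control mice against 46.0 and 37.3 CPM in the knockout mice, so that the genotypes overlapped, with a log2 fold change of 0.14 ± 0.20. Mitf was at 1.62 and 1.015 CPM in these control mice against 4.58 and 7.30 CPM in the knockout mice, a log2 fold change of 2.16 ± 0.45 (adjusted p of 0.028), or 1.79 without knockout 63 (adjusted p of 0.111). Per exon length Mitf stayed low, at a mean of 0.213 RPKM in controls and 0.959 RPKM in knockouts, against 15.8 and 11.0 RPKM for Tfeb. RNA levels do not report where these proteins are in the cell.

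CLEAR-type letters were looked for in the promoters because these factors bind them. RefSeq promoter windows (GRCm38.p6, 250 bases before to 50 after each annotated start) matched 38 of the 45 genes. The E-box CACGTG, which reads the same on both strands, was in a window of 13 of the 38 (34.2%). The share was 11.5% of 10230 tested genes with a window and 8.09% of all 27025 genes with a window. The longer TCACGTGA, also the same on both strands and containing CACGTG, was in 7 of the 38 (18.4%). It was in 2.14% of these tested genes and 1.125% of all genes with a window. GTCACGTG on either strand, which can overlap TCACGTGA, was in 9 of the 38 (23.7%), against 4.66% of these tested genes and 2.55% of all genes. CACGTG was in 5 of the 17 genes with a window that rose, in 0 of the 2 that fell and in 8 of the 18 that did not pass, and no comparison between these counts was tested. The following 30 bases, 5′ to 3′ on the gene's strand, show such letters in 4 genes that rose (Ctsl, Ctsd, Lamp1, Gaa) and 4 that did not pass (Mcoln1, Cln3, Gla, Atp6v1a), with CACGTG and any bases that extend it to TCACGTGA or GTCACGTG in capitals.
Ctsl, chr13:64370739-64370768, minus strand: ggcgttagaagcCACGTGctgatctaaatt
Ctsd, chr7:142387908-142387937, minus strand: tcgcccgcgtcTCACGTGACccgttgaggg
Lamp1, chr8:13159121-13159150, plus strand: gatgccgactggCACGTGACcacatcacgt
Gaa, chr11:119267811-119267840, plus strand: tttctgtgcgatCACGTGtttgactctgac
Mcoln1, chr8:3500462-3500491, plus strand: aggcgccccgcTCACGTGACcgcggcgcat
Cln3, chr7:126583340-126583369, minus strand: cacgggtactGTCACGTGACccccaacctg
Gla, chrX:134601182-134601211, minus strand: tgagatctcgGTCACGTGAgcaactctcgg
Atp6v1a, chr16:44139373-44139402, minus strand: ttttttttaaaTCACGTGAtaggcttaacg

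These letters are a description of the windows and not a measure of binding. TCACGTGA was in 2 of the 17 genes with a window that rose (Ctsd and Ctsa), in 0 of the 2 that fell and in 5 of the 18 that did not pass (Mcoln1, Cln3, Gla, Atp6v1a and Atp6v0d1).

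**Figure D3:**
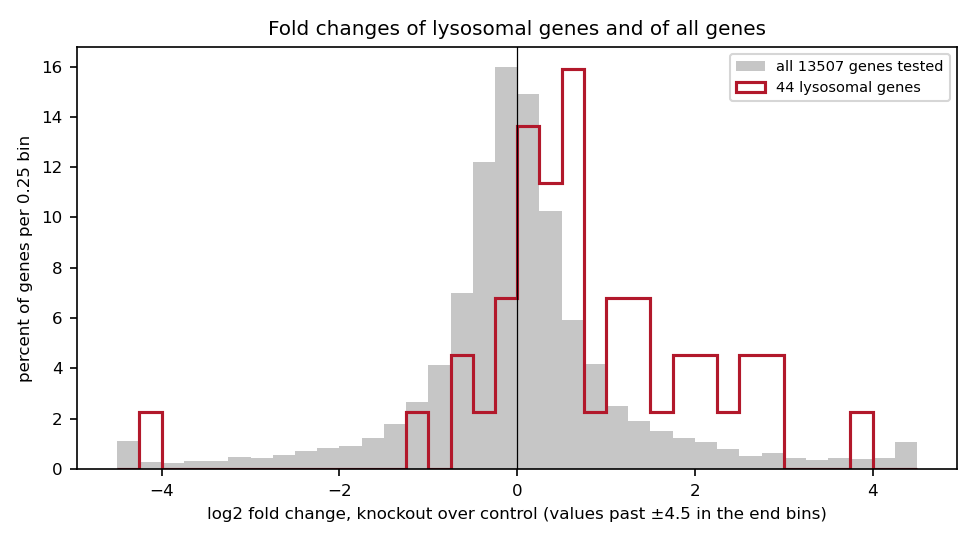
Share of genes (percent per bin) by log2 fold change of knockout over control, for the 44 lysosomal genes (red line) and all 13507 genes tested (grey). The lysosomal genes have their median at 0.62 and all genes at -0.02.

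Other genes of the lysosome, from lists that leave out the 45, moved in both directions. Over all genes tested, 11.3% rose and 10.9% fell. Of 37 other lysosomal hydrolases tested, 15 rose (40.5%), 2 fell (5.41%) and 20 did not pass, with a median log2 fold change of 0.70. Those that rose included Ctso, a cathepsin gene (1.17 ± 0.14, adjusted p of 0.00826), Siae, a sialic acid esterase gene (1.58 ± 0.19, adjusted p of 0.00842), and Prcp (1.07 ± 0.14, adjusted p of 0.0108). Prcp was at 0.95 without knockout 63 (adjusted p of 0.0517). Acp5, the tartrate-resistant acid phosphatase gene, and the sulfatase gene Arsg fell and were named after their values were seen (-1.99 ± 0.32 and -2.94 ± 0.71, adjusted p-values of 0.0155 and 0.0387). Arsg did not pass without control 69 (-2.58, adjusted p of 0.0897) or without knockout 63 (-2.35, adjusted p of 0.11), and it was at -4.14 without knockout 51. The number that rose was 8 without knockout 51 and 7 without knockout 63. Of 23 other lysosomal membrane and channel genes, 7 rose (30.4%), 0 fell and 16 did not pass. Those that rose included the nucleoside transporter gene Slc29a3 (2.41 ± 0.27, adjusted p of 0.00766) and the sialomucin gene Cd164 (1.40 ± 0.21, adjusted p of 0.0141). Ostm1, whose product is the partner of a lysosomal chloride transporter, also rose (0.78 ± 0.19, adjusted p of 0.038). Without knockout 51 or knockout 63 the number that rose was 2, with Ostm1 at 0.77 and 0.79 (adjusted p-values of 0.133 and 0.139). Without control 69, 6 of this list rose and 3 fell.

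Genes that sort hydrolases to the lysosome moved both ways. Of 15, 5 rose (33.3%), 1 fell (6.67%) and 9 did not pass, with a median of 0.36. Over all genes tested, 11.3% rose and 10.9% fell. Sort1, which encodes the sorting receptor sortilin, rose (1.53 ± 0.17, adjusted p of 0.00753), as did Cln8, an export factor for newly made lysosomal enzymes (2.10 ± 0.31, adjusted p of 0.0128). Gnptab, a subunit of the enzyme that starts the mannose 6-phosphate tag, also rose (1.03 ± 0.14, adjusted p of 0.0112), though not without knockout 63 (0.92, adjusted p of 0.0523). Gga2, a coat adaptor for mannose 6-phosphate receptors, fell (-1.11 ± 0.12, adjusted p of 0.00754). The other genes that rose, named after their values were seen, were M6pr, the gene of a mannose 6-phosphate receptor (0.79 ± 0.14, adjusted p of 0.0176), and Nagpa, which uncovers the tag (0.78 ± 0.17, adjusted p of 0.031). Neither passed without knockout 51 (0.81 and 0.69, adjusted p-values of 0.0714 and 0.168) or knockout 63 (0.76 and 0.86, adjusted p-values of 0.0968 and 0.105). In this list 3 genes rose without knockout 51 and 2 without knockout 63.

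The nutrient-sensing genes of the lysosomal surface and the autophagy genes had medians below 0. Of 18 nutrient-sensing genes, 2 rose (11.1%), 3 fell (16.7%) and 13 did not pass, with a median of -0.08. Over all genes tested, 11.3% rose and 10.9% fell, with a median of -0.02. Fnip2, a partner of folliculin, rose from 2.75 and 2.56 CPM in controls 55 and 69 to 18.7 and 22.2 CPM in knockouts 51 and 63 (2.94 ± 0.25, adjusted p of 0.00529). Mtor, the kinase gene at the centre of the pathway, fell (-1.04 ± 0.14, adjusted p of 0.0108), and did not pass without knockout 63 (-0.96, adjusted p of 0.0618). Rragd, a small GTPase gene, fell (-1.86 ± 0.39, adjusted p of 0.0286), with -1.55 and an adjusted p of 0.0901 without knockout 63. Lamtor4 rose (0.74 ± 0.16, adjusted p of 0.0301) and did not pass without knockout 51 (0.78, adjusted p of 0.112) or knockout 63 (0.71, adjusted p of 0.152). Tsc1, an inhibitor of the pathway named after its values were seen, also fell (-0.60 ± 0.14, adjusted p of 0.0341). It did not pass without control 55 (-0.49, adjusted p of 0.0951), knockout 51 (-0.59, adjusted p of 0.171) or knockout 63 (-0.60, adjusted p of 0.195). Without knockout 51, 1 gene of the list rose and 2 fell, and without knockout 63, 1 rose and 0 fell.

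Of 16 autophagy genes, 1 rose (6.25%), 2 fell (12.5%) and 13 did not pass, against 11.3% rising and 10.9% falling over all genes tested. Their median was -0.34, and both knockouts were below both controls for 11 of the 16, against 34.6% of all genes. Uvrag, a partner of the lipid kinase of autophagy, rose (1.23 ± 0.18, adjusted p of 0.0134). Wipi2 and Wipi1, whose products bind the lipid that kinase makes, fell (-0.71 ± 0.14 and -1.61 ± 0.32, adjusted p-values of 0.0245 and 0.0257). Neither Wipi gene passed without knockout 51 (adjusted p-values of 0.123 and 0.0990) or knockout 63 (0.132 and 0.0823), and Wipi2 also did not pass without control 55 (-0.56, adjusted p of 0.0558) nor Wipi1 without control 69 (-1.44, adjusted p of 0.0512). Map1lc3b, the gene of a protein that coats autophagosomes, was just short of the threshold (-0.48 ± 0.13, adjusted p of 0.0506), and it passed with DESeq2 (-0.47, adjusted p of 0.0467) and with total-count scaling (-0.50, adjusted p of 0.0436).

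Per exon length the order of the members differed between genotypes. In controls Psap (577 and 410 RPKM in controls 55 and 69) was followed by Ctss (144 and 82.2 RPKM) and Ctsz (104 and 69.6 RPKM), whose ranges overlapped. In knockouts Psap (2188 and 2457 RPKM in knockouts 51 and 63) was followed by Ctss (362 and 440 RPKM), then Grn (309 and 357 RPKM) and Ctsb (269 and 354 RPKM), whose ranges overlapped with each other. Ctsl went from rank 31 to rank 7 of the 45, and Atp6ap1 from rank 5 to rank 15. These lengths are those of all annotated exons joined, so isoform use could shift them.

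Markers of other blood cells moved with the genotype in the same libraries. Of 11 dendritic cell markers, 9 rose and 0 fell, and their summed level was 1394 (control 55) and 729 CPM (control 69) against 8554 (knockout 51) and 10908 CPM (knockout 63). None of them was at 0, and among the defining ones Siglech was at 194 and 28.3 CPM in these control mice against 1262 and 2305 CPM in the knockout mice. Siglech rose (adjusted p of 0.0378), with a log2 fold change of 6.01 without control 55, 3.19 without control 69 and 3.50 without knockout 63 (adjusted p of 0.0721). Of 11 NK and T cell markers, 8 rose and 0 fell, against 11.3% rising and 10.9% falling over all genes tested. Their sums were 35.8 and 23.4 CPM in these control mice against 991 and 306 CPM in the knockout mice. In knockout 51, 10 of the 11 were higher than in knockout 63, with Gzma at 231 and 14.7 CPM and Il2rb at 243 and 24.1 CPM. Klrd1 (114 and 155 CPM) and Thy1 (93.3 and 69.2 CPM) were closer between the knockouts. The part of dendritic, NK and T cells in the rise of the lysosomal genes was not tested.

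Monocyte and macrophage markers were summed in the same way. Of 12 monocyte and macrophage markers, 1 rose, 6 fell and 5 did not pass. Their sum was 398 (control 55) and 397 CPM (control 69) against 90.3 (knockout 51) and 54.6 CPM (knockout 63). Lyz2 made up most of the control sums, at 333 (control 55) and 325 CPM (control 69) against 40.5 (knockout 51) and 16.5 CPM (knockout 63). Csf1r, the receptor gene that defines the lineage, was at 8.56 and 11.8 CPM in these control mice against 8.35 and 6.74 CPM in the knockout mice, and Cd163 was the marker that rose (1.62 ± 0.20). The part of these cells in the values of the lysosomal genes, Cd68 included, was not tested.

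All 9 neutrophil markers and 6 of 7 eosinophil, basophil and mast cell markers fell, none rose, and their sums went from 4679 and 3647 CPM to 210 and 51.6 CPM and from 290 and 139 CPM to 3.99 and 2.39 CPM in the same order of libraries. Epx was at 1 and 0 counts in knockouts 51 and 63. Cd63, a granule membrane gene of these cells, fell beside them, and their part in its fall was not tested. Of 7 erythroid markers 5 fell and 0 rose, while the sum was carried by Tfrc. Of 7 plasma cell markers 1 rose and 2 fell.

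**Figure D4:**
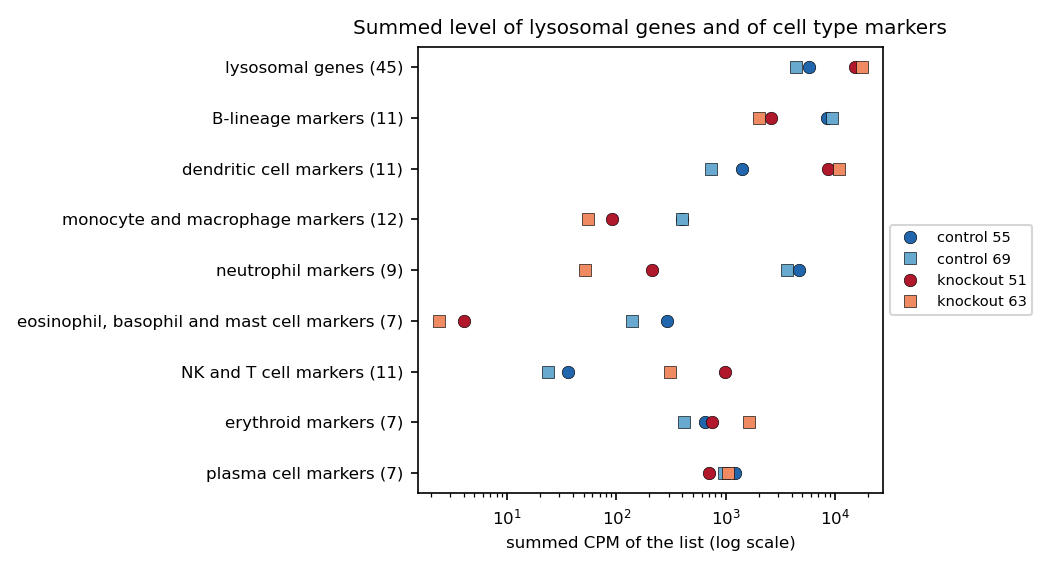
Summed CPM (log scale) of the lysosomal genes and of each list of cell type markers, with 1 point per library and the number of genes in brackets. Lysosomal genes, dendritic cell markers and NK and T cell markers were higher in the knockouts, and neutrophil and macrophage markers were lower. Sums were higher in control 55 than in control 69 for the lysosomal genes and every marker list but the B-lineage one. The macrophage sums of the controls were nearly equal. Lyz2 made up most of the macrophage sum in the controls.

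The control libraries also differed from each other. Of the 44 lysosomal genes, 35 were higher in control 55 than in control 69, against 49.8% of all genes tested, and 10 of the 11 dendritic cell markers were too. So were 9 of 9 neutrophil, 6 of 7 eosinophil, basophil and mast cell, 8 of 11 NK and T cell and 5 of 7 plasma cell markers. The same held for 4 of 11 B-lineage, 4 of 12 monocyte and macrophage and 4 of 7 erythroid markers. What lies behind these differences was not tested. The largest ratios of control 55 to control 69 were those of Ctsl (4.02), Ctsh (2.86), Grn (2.13) and Cd68 (2.09). These 4 were also among the members with the largest rises. Other members that rose, picked here after their values were seen, had controls close to each other, with log2 ratios of control 55 to control 69 of -0.05 for Ctsd, -0.14 for Gaa, 0.15 for Npc2, 0.12 for Scarb2 and 0.07 for Lamp1 and Lamp2. Their rises ranged from 0.63 (Lamp1) to 1.60 (Scarb2).

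Some of these values may include reads of neighbouring genes, or lack reads that fall in shared exons. Exons of 13 of the 45 genes overlap those of another annotated gene, most of all Ctsl (1742 bases shared with predicted genes), Ctsd (808 bases, Gm49369) and Ctsb (774 bases, Fdft1), and without a stated strand setting such reads cannot be told apart.

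**Figure D5:**
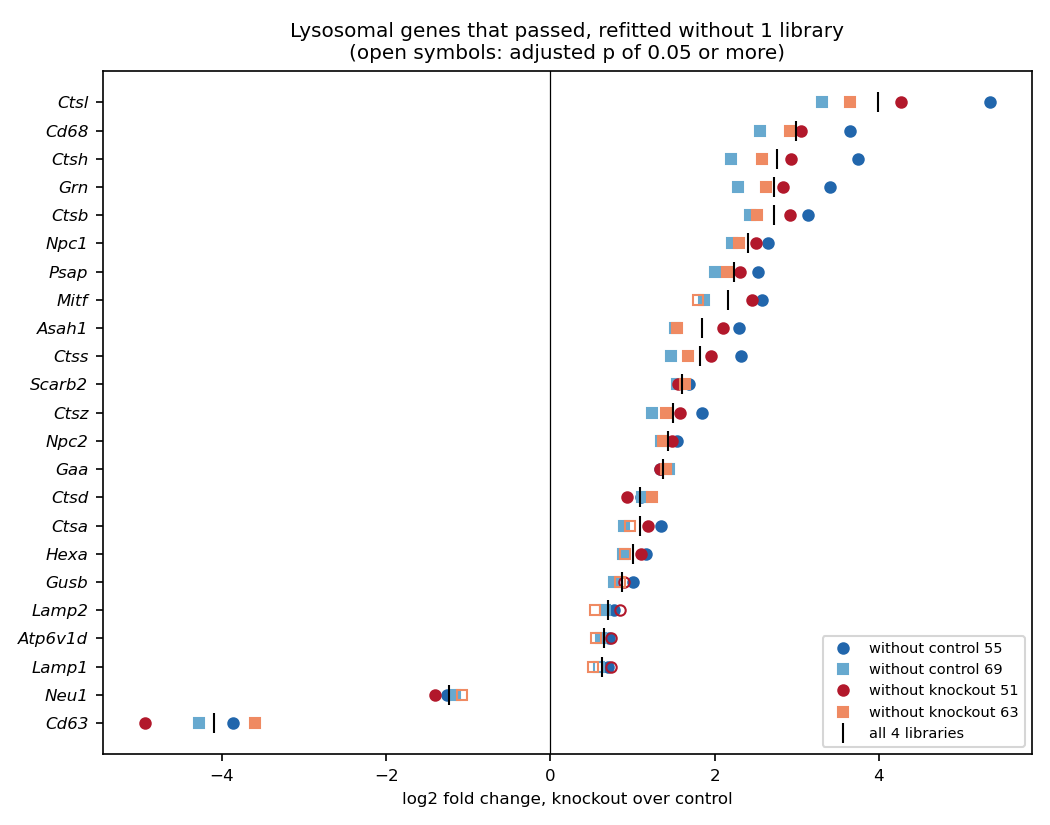
Log2 fold changes of the 23 lysosomal genes that passed, refitted with 1 library left out in turn (coloured symbols) and with all 4 (black bars). Open symbols mark an adjusted p of 0.05 or more, and no gene changed sign.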

How the data were processed

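Libraries of sorted pro-B cells from 2 control and 2 knockout mice were made from total RNA with a low input kit, per the labels' protocols. Per the submitters' processing notes, the tools were DESeq2, featureCounts, Subread 2.0.0, STAR 2.7.4a, deepTools 3.3.2 and SAMtools 1.10, on GRCm38 or mm10. How multi-mapped reads and strand were handled, and which annotation was used, is not given in the sources used here. The authors deposited raw counts per gene symbol. They also deposited a normalized signal table. The median over genes of its value divided by the count was 1.01 (control 55), 1.22 (control 69), 0.816 (knockout 51) and 1.10 (knockout 63). The normalized table was used in 1 alternative, for its 13001 rows that matched a symbol of 13021.

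The deposited counts were tested with edgeR 4.0.16 (R 4.3.3). After filterByExpr (minimum count of 10, minimum total of 15) and TMM scaling, the genotypes entered a quasi-likelihood F test with no covariate, with Benjamini-Hochberg adjustment over 13507 genes. SE is the log2 fold change over the square root of F. Each library came from its own mouse, so p-values rest on the spread between animals, moderated across genes by edgeR. Within each genotype that spread includes the difference between a female and a male. Mouse numbers do not pair the genotypes. Gene positions and exon lengths are from GENCODE M21 (GRCm38), and promoters from RefSeq.

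The members and lists were chosen with earlier results of these data known. The rule for named genes was all 45 members, with values per library for those that passed, the MiT genes and those whose call changed with 1 library left out, and of each further list up to 4 genes with the lowest adjusted p. A few genes covered by this rule are left out of the text. Others are named as examples chosen after their values were seen. The settings varied were total counts or DESeq2 size factors within edgeR, no filter, DESeq2 1.42.0, limma-voom (limma 3.58.1), limma on log2 of the authors' normalized signal plus 1, sex read from Xist as a block, and each library left out in turn.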

Additional observations from a re-analysis of the deposited data

How the results depend on the processing

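The genotypes share no mouse numbers, so no replicate number pairs the mice, but each genotype has 1 female and 1 male and sex was fitted as a block. That block left all 23 lysosomal calls in place and added Man2b1, Manba, Lipa and Tfeb, giving 24 that rose and 3 that fell, and over all genes 2137 that rose and 2186 that fell. The 23 lysosomal calls remained, in the same direction, under DESeq2 size factors, total counts, no filter, DESeq2, limma-voom and the authors' normalized values, with 23 of 23 shared in each, and DESeq2 added Lipa. With a library left out the shared calls were 23 without control 55, 22 without control 69, 19 without knockout 51 and 15 without knockout 63. Lysosomal genes that rose numbered 14 to 23 and those that fell 1 to 3 with a library left out, and over all genes 747 to 1649 rose and 530 to 1580 fell. Directions that turned were of genes that did not pass: with a library left out Lgmn ranged from -0.35 to 0.14, Gla from -0.58 to 0.15, Atp6ap1 from -0.41 to 0.14 and Atp6v1b2 from -0.20 to 0.087, each above 0 without control 55, and Tfe3 from -0.019 (without knockout 51) to 0.32. A group left with 1 library is assumed to vary like the other. With 2 mice per genotype, small differences such as those of the V-ATPase genes could go undetected.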
